A study of Mus musculus with 12 samples.

Results

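Expression of 10 genes that mark liver macrophages was followed in mouse liver after a carcinogen: Cd68, Emr1, Clec4f, Cd5l, Vsig4, Marco, Csf1r, Lyz2, Trem2 and Gpnmb. They were chosen by name as a marker list, not by a measured value, and are 10 of the 31253 gene symbols in the expression tables. Within the list, Clec4f, Cd5l, Vsig4 and Marco stand for resident macrophages, Trem2 and Gpnmb for lipid-associated macrophages, and Cd68, Emr1, Csf1r and Lyz2 for macrophages in general. RNA was sequenced from mouse liver in 12 libraries, 3 in each of 4 groups. The animals were male C57BL6 mice, either wild type (WT) or carrying a knock-in called CUGBP1 s302a, in the gene of an RNA-binding protein. The question set by the design is how liver RNA differs after the liver carcinogen diethylnitrosamine (DEN) in each genotype, and between the genotypes with and without DEN.

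The 4 groups were s302a Den (knock-in, DEN), s302a Ctrl (knock-in, no treatment), WT Den (wild type, DEN) and WT Ctrl (wild type, no treatment). DEN was injected at 3 weeks of age at 50 µg per g of body weight, and livers were taken 30 to 38 weeks after that. A field of the labels gives 33 to 41 weeks of age at sacrifice, the same schedule, while the sample descriptions put sacrifice itself at 30 to 38 weeks. The labels name the tissue as liver and do not say whether a sample held tumour, and they do not say that each library came from a separate animal. The p-values below therefore measure the spread between these libraries, which may be technical in part. A single changed amino acid cannot be seen in gene-level values, so the knock-in label was not checked against the RNA.

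Kupffer cells are the resident macrophages of the liver. They sit in the sinusoids, where they take up particles, aged red cells and bacteria from the blood through scavenger and complement receptors. Clec4f, a C-type lectin, is confined to them among mouse macrophages, and Cd5l, Vsig4 and Marco are much richer in them than in monocytes. When the liver is injured, monocytes can enter and become macrophages that carry general markers such as Cd68, and lipid-rich or scarred tissue can hold a lipid-associated state marked by Trem2 and Gpnmb. In RNA from whole tissue, fewer cells of a type and less RNA per cell cannot be told apart.

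Values are TPM, a relative abundance of transcripts scaled by transcript length and by the library total, so that levels of different genes can be set side by side. Every table holds a floor: no value is below 1, and 58.1 to 65.3% of the symbols in a library are listed at exactly 1. A gene listed at 1 is written here as being at the floor, and its true level may be anything up to that. Albumin (Alb), the main secreted protein of hepatocytes, had between 21177 and 56369 TPM over the 12 libraries. The library s302a Den 3 stood apart from the rest: its rank correlations with the others ran from 0.877 to 0.913, against 0.937 to 0.980 among the 55 pairs without it, and 13083 genes were above the floor in it, against 10839 to 11653 in the others. Results that rest on it are given with and without it.

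Of the 10 markers, 8 were above the floor in at least 3 libraries and were tested, while Trem2 and Gpnmb were not. Taking the median of the 11 libraries other than s302a Den 3, the order of levels was Lyz2 at 31.5 TPM, Clec4f at 27.3, Cd5l at 22.0, Vsig4 at 12.7, Csf1r at 6.0, Cd68 at 5.65, Marco at 3.09 and Emr1 at 1.87 TPM, with Trem2 and Gpnmb at the floor. Neighbours in this order overlapped in their ranges over those libraries at every step. Apart from Marco in WT Den, the resident markers were above the floor in every library, whereas the lipid-associated pair was almost wholly below what these tables can show.

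**Figure D1:**
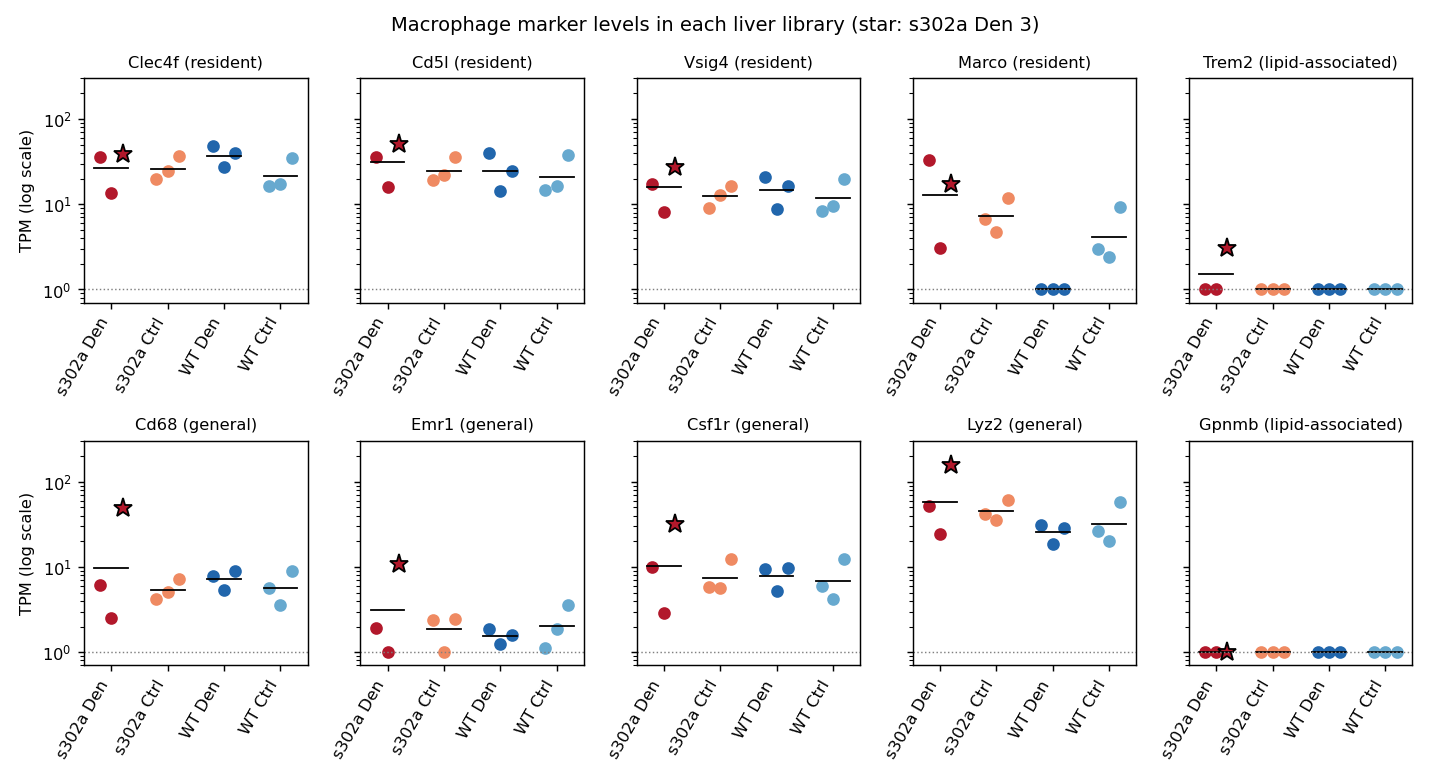
TPM of the 10 markers on a log axis in each of the 12 libraries, grouped as s302a Den, s302a Ctrl, WT Den and WT Ctrl; points are libraries, with s302a Den 3 as a star, the short bars are group means taken on the log2(TPM + 1) scale, and the dotted line is the floor of 1 TPM. Marco lies at the floor in all 3 WT Den libraries, Trem2 leaves it only in s302a Den 3 (3.05 TPM), and Gpnmb never does.

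None of the 8 tested markers differed between groups by the test used, limma on log2(TPM + 1) with all 4 groups in a single model and Benjamini-Hochberg adjustment over the 12120 genes tested. That held for s302a Den against s302a Ctrl, where 0.619% of all tested genes were called at an adjusted p below 0.05. It held for WT Den against WT Ctrl, with 0.132% of genes called, for s302a Den against WT Den, with 0.38%, and for s302a Ctrl against WT Ctrl, with 0.033%. It also held for the difference between the DEN effects of the genotypes, with 0.0413% of genes called, and for the mean DEN effect, with 1.34%. At an unadjusted p below 0.05, Marco alone passed, in s302a Den against WT Den (7.83% of all tested genes passed) and in the difference of DEN effects (5.06% passed). None passed in s302a Den against s302a Ctrl (16.4%), WT Den against WT Ctrl (8.26%), s302a Ctrl against WT Ctrl (1.48%) or the mean DEN effect (19.4%). Calls were thus rare over the whole table, and a marker list without any is close to that background.

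Clec4f, the lectin by which mouse Kupffer cells are recognised, had 35.4, 13.7 and 38.9 TPM in s302a Den libraries, 19.9, 24.9 and 36.6 TPM in s302a Ctrl libraries, 47.7, 27.3 and 39.7 TPM in WT Den libraries and 16.5, 17.5 and 35.3 TPM in WT Ctrl libraries. All groups overlapped, with the lowest value in s302a Den 2 and the highest in WT Den 1. In WT, Clec4f averaged 38.2 ± 10.3 TPM with DEN and 23.1 ± 10.6 TPM without (SD, n = 3 each), a log2 difference of 0.75 (SE 0.41, limma adjusted p = 0.682). Between s302a Den and s302a Ctrl the log2 difference was 0.02, with a 95% interval of -0.86 to 0.91. The sign of that small difference turned to -0.29 under median-of-ratios scaling and to -0.24 without s302a Den 3. Against WT Den, s302a Den was lower by a log2 difference of -0.46 (SE 0.41, limma adjusted p = 0.870). That value was -0.73 without s302a Den 3 and -0.0048 without s302a Den 2, and it was -0.29 without WT Den 1. The DEN effects of the genotypes differed by -0.73 for Clec4f (limma adjusted p = 0.975), and by -0.99 without s302a Den 3.

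Cd5l, a secreted scavenger receptor protein also called AIM, had 36.2, 16.2 and 51.1 TPM in s302a Den libraries, 19.1, 22.0 and 35.7 TPM in s302a Ctrl libraries, 39.7, 14.5 and 24.9 TPM in WT Den libraries and 14.6, 16.5 and 37.8 TPM in WT Ctrl libraries. Vsig4, a complement receptor of Kupffer cells that clears opsonised particles, had 17.2, 8.15 and 27.6 TPM in s302a Den libraries, 9.06, 12.7 and 16.4 TPM in s302a Ctrl libraries, 20.8, 8.91 and 16.5 TPM in WT Den libraries and 8.41, 9.66 and 19.6 TPM in WT Ctrl libraries. Every group overlapped every other for both genes, and replicates within a group lay further apart than the group means. The library highest for Cd5l within a group was also the highest for Vsig4, in all 4 groups.

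Marco, a scavenger receptor for bacteria and particles, had the widest range of the resident markers on a fold scale. It had 32.9, 3.09 and 17.5 TPM in s302a Den libraries, against 1, 1 and 1 TPM in WT Den libraries. All 3 WT Den libraries were therefore at the floor, although the same libraries held as much Clec4f as any group. Without DEN, Marco had 6.71, 4.76 and 11.9 TPM in s302a Ctrl libraries and 2.99, 2.39 and 9.20 TPM in WT Ctrl libraries. WT Den thus lay below each of the other groups with no overlap, while s302a Den held both a library near the lowest untreated ones and the highest libraries of all.

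The log2 difference of Marco between s302a Den and WT Den was 2.78 (SE 0.64, 95% interval 1.38 to 4.17, unadjusted p = 0.000915), with a limma adjusted p of 0.101, so it missed the threshold. Its size depends on the floor at which WT Den stands. The adjusted p ran from 0.00110 to 0.351 over the 22 alternative settings. It passed without s302a Den 2, the lowest library of that group (log2 difference 3.65, adjusted p = 0.00988), and with array quality weights (3.65, adjusted p = 0.00110), but not without s302a Den 3 (2.56, adjusted p = 0.0667). Groups that do not overlap were seen in this direction for 3.23% of all tested genes. WT Den against WT Ctrl gave a log2 difference of -1.37 for Marco (SE 0.64, limma adjusted p = 0.611), also without overlap, as for 3.21% of tested genes in that direction. The contrast of s302a Den with s302a Ctrl gave 0.72 (SE 0.64, limma adjusted p = 0.528) and that of s302a Ctrl with WT Ctrl gave 0.68 (adjusted p = 1). The DEN effects of the genotypes differed by 2.09 for Marco (SE 0.91, 95% interval 0.12 to 4.06, limma adjusted p = 0.909). Without s302a Den 3 that difference was 1.87, with an interval of -0.30 to 4.05 (limma adjusted p = 0.439). With 3 libraries against 3, an exact permutation test cannot give a two-sided p below 0.1.

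**Figure D2:**
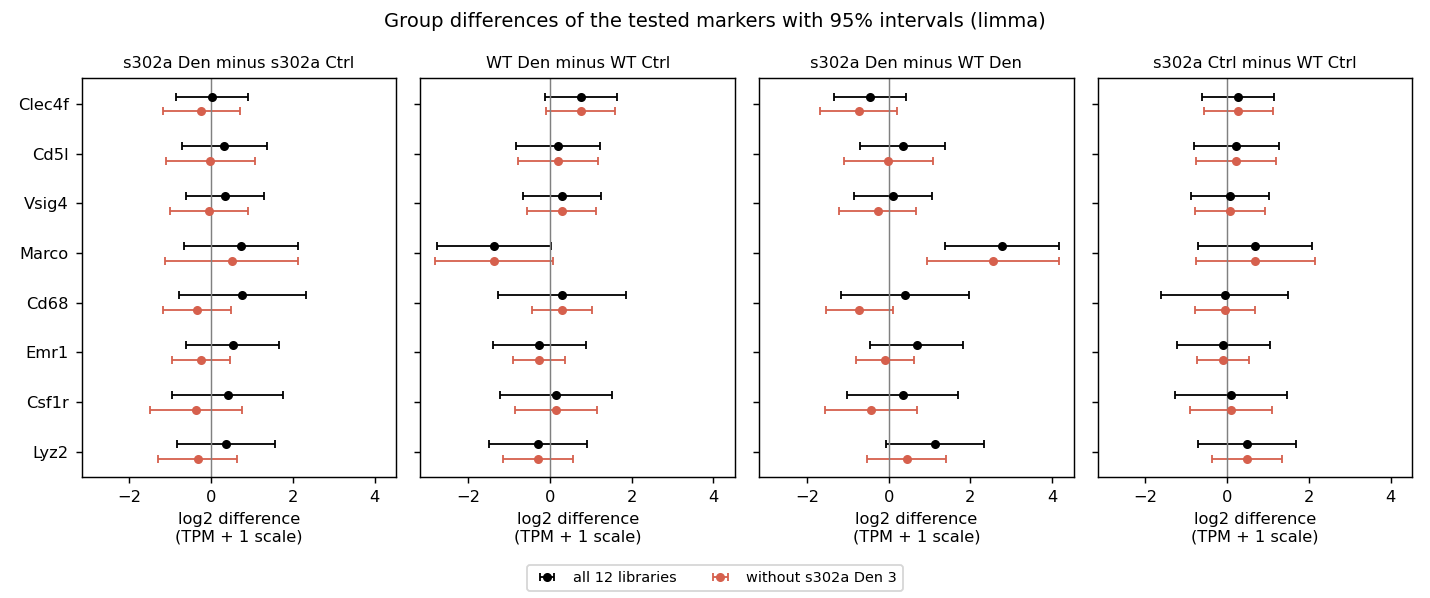
Differences in log2(TPM + 1) of the 8 tested markers with 95% intervals from limma, in 4 panels for s302a Den minus s302a Ctrl, WT Den minus WT Ctrl, s302a Den minus WT Den and s302a Ctrl minus WT Ctrl; black points use all 12 libraries and red points leave out s302a Den 3. Only the interval of Marco in s302a Den minus WT Den lies away from 0 (1.38 to 4.17 with all libraries), and the general markers in s302a Den move below 0 once s302a Den 3 is left out of its comparison with s302a Ctrl.

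Of the markers, Cd5l, Vsig4, Marco and Cd68 are shown with the DNA just before their transcription starts. The macrophage factor PU.1 is known to act on many macrophage genes, and these windows are printed because they hold its core letters. The window of the resident marker Clec4f holds none and is not printed. The windows hold the 250 bases before the start in RefSeq (GRCm38.p6), and capitals mark the PU.1 core GAGGAA or, for the opposite strand, TTCCTC. Cd5l is shown at chr3:87357631-87357880 on the plus strand, Vsig4 at chrX:96293439-96293688, Marco at chr1:120505025-120505274 and Cd68 at chr11:69666171-69666420, the last 3 on the minus strand.
Cd5l: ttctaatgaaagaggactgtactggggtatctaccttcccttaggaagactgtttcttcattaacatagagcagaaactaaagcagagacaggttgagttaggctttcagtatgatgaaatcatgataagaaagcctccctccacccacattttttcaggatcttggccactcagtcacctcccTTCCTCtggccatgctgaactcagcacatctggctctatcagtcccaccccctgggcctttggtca
Vsig4: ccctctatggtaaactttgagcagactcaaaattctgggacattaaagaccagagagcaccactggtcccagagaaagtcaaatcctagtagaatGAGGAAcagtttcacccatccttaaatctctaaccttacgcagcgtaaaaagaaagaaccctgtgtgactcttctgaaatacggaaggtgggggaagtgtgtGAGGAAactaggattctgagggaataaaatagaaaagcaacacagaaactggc
Marco: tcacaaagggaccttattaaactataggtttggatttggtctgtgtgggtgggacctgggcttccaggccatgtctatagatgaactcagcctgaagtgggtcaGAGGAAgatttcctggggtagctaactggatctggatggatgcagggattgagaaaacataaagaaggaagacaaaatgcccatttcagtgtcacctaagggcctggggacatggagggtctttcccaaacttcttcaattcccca
Cd68: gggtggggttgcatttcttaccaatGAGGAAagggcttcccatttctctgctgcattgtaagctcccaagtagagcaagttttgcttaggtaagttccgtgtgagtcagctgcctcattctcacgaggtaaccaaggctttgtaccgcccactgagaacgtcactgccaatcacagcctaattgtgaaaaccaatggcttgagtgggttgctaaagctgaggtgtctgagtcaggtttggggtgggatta

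A window was used for 8 of the 10 markers, not for Emr1 or Csf1r. GAGGAA stood on either strand in 5 of them, those of Cd5l, Cd68, Marco, Trem2 and Vsig4. It stood in 23.3% of the 32851 promoter windows of the same length. In Vsig4 it occurred at 155 and at 53 bases before the start, in Marco at 146 and in Cd5l at 66. The windows of Clec4f, Lyz2 and Gpnmb held neither form, which says only that these letters are not in these bases. The letters CACGTG, the core bound by the MITF and TFE factors that act on Gpnmb, stood in 0 of the 8 windows and in 6.02% of all windows. The match is a description of sequence, not of binding.

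In the genome (GRCm38, GENCODE genes), Cd5l lies at chr3:87357881-87371073, Vsig4 at chrX:96247203-96293438, Marco at chr1:120474538-120505024 and Clec4f at chr6:83644542-83656187. Cd68 lies at chr11:69664213-69666153, Lyz2 at chr10:117277331-117282321, Csf1r at chr18:61100598-61132149 and Emr1, now called Adgre1, at chr17:57358691-57483527. Trem2 lies at chr17:48346401-48354147 and Gpnmb at chr6:49036546-49070929, and all 10 are protein-coding. Of the 31-base words in the transcripts of Lyz2, 32.8% also occur in its neighbour Lyz1, and of those of Csf1r 14.6% also occur in Hmgxb3, so the split of reads between these genes is uncertain. The other tested markers shared no such word with another gene.

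Among the general markers, Cd68, a lysosomal protein of all macrophages, had 6.16, 2.53 and 49.6 TPM in s302a Den libraries, 4.19, 5.09 and 7.32 TPM in s302a Ctrl libraries, 7.77, 5.37 and 9.01 TPM in WT Den libraries and 5.65, 3.54 and 8.89 TPM in WT Ctrl libraries. Csf1r, the receptor for the growth factor on which macrophages depend, had 9.97, 2.85 and 31.8 TPM in s302a Den libraries, 5.81, 5.64 and 12.3 TPM in s302a Ctrl libraries, 9.39, 5.16 and 9.62 TPM in WT Den libraries and 6.0, 4.25 and 12.5 TPM in WT Ctrl libraries. For both genes the highest value was that of s302a Den 3 and the lowest that of s302a Den 2, so this group enclosed all the others.

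Lyz2, the lysozyme of macrophages and neutrophils, had 51.7, 24.1 and 156.0 TPM in s302a Den libraries, 41.6, 35.9 and 60.4 TPM in s302a Ctrl libraries, 31.5, 18.8 and 29.0 TPM in WT Den libraries and 26.7, 20.3 and 58.2 TPM in WT Ctrl libraries. Emr1, a surface receptor of mature mouse macrophages, was low, with 1.90, 1 and 10.9 TPM in s302a Den libraries, 2.38, 1 and 2.42 TPM in s302a Ctrl libraries, 1.87, 1.23 and 1.59 TPM in WT Den libraries and 1.13, 1.88 and 3.60 TPM in WT Ctrl libraries. Lyz2 in WT Den lay at the low end and overlapped s302a Den by the range of s302a Den 2 alone. The log2 difference between s302a Den and WT Den was 1.14 for Lyz2 (SE 0.55, limma adjusted p = 0.672), and 0.44 without s302a Den 3. For Emr1, s302a Ctrl minus WT Ctrl was -0.10, a value whose sign turned when s302a Ctrl 2 or WT Ctrl 3 was left out.

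The summary of s302a Den against s302a Ctrl turned on a single library. With all libraries the 8 tested markers had log2 differences of 0.02 to 0.76, all positive, with a median of 0.38 beside 0.27 for all tested genes. Under median-of-ratios scaling, where the median of all tested genes in the same comparison is 0.0052, 7 of 8 stayed positive and their median was 0.07. Without s302a Den 3, 7 of the 8 were negative, from -0.38 to -0.02, and Marco stood at 0.50. Cd68 is an example, at 0.76 with all libraries (SE 0.72, limma adjusted p = 0.550) and -0.35 without s302a Den 3 (adjusted p = 0.701). In s302a Den against WT Den likewise, 7 of 8 were positive with all libraries and 2 of 8 without s302a Den 3, namely Marco and Lyz2. No tested marker was called without s302a Den 3 in either comparison, while 2.43% of genes were called in s302a Den against s302a Ctrl and 5.89% in s302a Den against WT Den.

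In WT Den against WT Ctrl, 5 of the 8 tested markers were positive, with a median log2 difference of 0.18 beside 0.13 for all tested genes. In s302a Ctrl against WT Ctrl, 6 of 8 were positive with a median of 0.16 beside -0.07 for all tested genes. These medians lie inside the intervals of the single markers, apart from that of Marco in WT Den against WT Ctrl. The narrowest interval, that of Clec4f, ran from -0.13 to 1.64 in WT Den against WT Ctrl.

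Trem2, a lipid-sensing receptor, was at the floor in 11 libraries and at 3.05 TPM in s302a Den 3. Gpnmb, a transmembrane glycoprotein of lipid-loaded macrophages, was at the floor in all 12. No fold can be given for Gpnmb, and for Trem2 the single value above the floor has no replicate. The summed level of the pair was 4.05 TPM in s302a Den 3 and 2.0 TPM, which is the floor for 2 genes, in each other library. The summed level of the 4 resident markers was 135.1 TPM in s302a Den 3 and 41.1 to 121.7 TPM in the others. On the log2(TPM + 1) scale the mean of the lipid-associated pair minus that of the resident markers was -2.94 ± 0.58 (SD, n = 12 libraries), from -3.92 to -2.27. Because the pair was held at the floor, this difference mostly mirrors the level of the resident markers.

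Library s302a Den 3 had a marker profile of its own, described here without a test since it is 1 library. Of the 8 tested markers, 6 were higher in it than in all 11 others, beside 70.8% of all tested genes, so on the deposited scale that count is near the background. After median-of-ratios scaling, 4 of 8 stood above all others, beside 24.0% of all tested genes, and after quantile normalization 4 of 8, beside 21.1%. Those 4 were Cd68, Emr1, Csf1r and Lyz2, the general markers. None of the 4 resident markers did so under either scaling. Clec4f in s302a Den 3 was exceeded by 2 other libraries and Marco by 1 before any scaling.

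Set against the median of the 11 others on the log2(TPM + 1) scale, s302a Den 3 differed by 2.93 for Cd68, 2.27 for Lyz2, 2.23 for Csf1r and 2.06 for Emr1, and under median-of-ratios scaling by 2.20, 1.61, 1.43 and 1.53. Clec4f differed by 0.50, and by -0.24 under that scaling. Cd5l differed by 1.18 and 0.34, Vsig4 by 1.06 and 0.21, and Marco by 2.18 and 1.25. The resident markers other than Marco thus lay near the other libraries once the overall shift was taken out, and the general markers lay above them under each scaling tried.

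Ratios of TPM within a library do not depend on a scaling by 1 factor per library, such as median-of-ratios. The ratio of Cd68 to Clec4f was 1.27 in s302a Den 3 and 0.163 to 0.343 in the 11 others. The ratio of Csf1r to Clec4f was 0.816 and 0.189 to 0.364, and that of Lyz2 to Clec4f was 4.01 and 0.660 to 2.09. Among resident markers the shift was smaller, with Cd5l to Clec4f at 1.31 in s302a Den 3 and 0.531 to 1.18 in the others, and Vsig4 to Clec4f at 0.708 and 0.326 to 0.595. The sum of the general markers over that of the resident markers was 1.84 in s302a Den 3 and 0.463 to 0.985 elsewhere. A ratio shows unequal levels and not which of its genes moved.

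**Figure D3:**
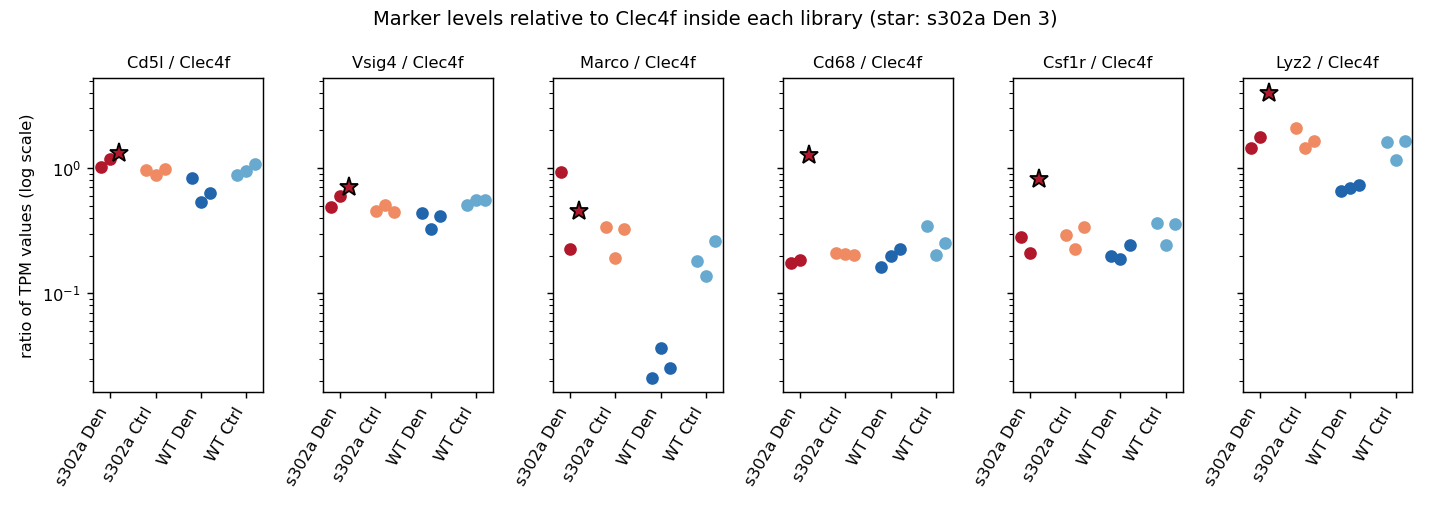
Ratios of marker TPM to Clec4f TPM within each library, on a log axis, by group in the order s302a Den, s302a Ctrl, WT Den and WT Ctrl, with s302a Den 3 as a star. The star lies above all other libraries for Cd68 (1.27), Csf1r (0.816) and Lyz2 (4.01), and for Marco it lies inside their range (0.450).

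Further macrophage genes from marker lists were set beside the markers in s302a Den 3. Of the 14 other general macrophage genes tested, 14 were above all 11 other libraries in TPM and 11 after median-of-ratios scaling, with medians of 2.34 and 1.58 on the log2(TPM + 1) scale. The shares of all tested genes above all others were 70.8% in TPM and 24.0% after that scaling. Tyrobp, an adaptor of activating receptors, had 96.6 TPM there and at most 34.95 TPM elsewhere, and Ctss, a lysosomal protease, had 122 TPM and at most 27.4 TPM. Of the 15 other Kupffer cell genes, 10 were above all others in TPM, a share below that of all tested genes, and 6 after that scaling, with medians of 0.65 and -0.07, beside 0.73 and 0.01 for all tested genes. Id3 and Nr1h3, transcription regulators of the Kupffer cell programme, had 81.8 and 68.0 TPM there, against 53.6 to 193 and 41.8 to 67.9 TPM elsewhere.

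Some genes of these lists were picked for mention after their values were seen. The complement genes C1qa, C1qb and C1qc, made by Kupffer cells and other macrophages, had 144.5, 160.7 and 131.9 TPM in s302a Den 3, with highest values elsewhere of 35.2, 35.8 and 36.7 TPM. Folr2, Fcna and Cd163, receptors and a lectin of resident macrophages, lay inside the range of the other libraries. Timd4, a receptor for dying cells that marks long-lived Kupffer cells, had 5.64 TPM there and at most 5.01 TPM elsewhere. Ccr2 and Cx3cr1, chemokine receptors of monocytes, each had 6.86 TPM there, with highest values elsewhere of 1.19 TPM for Ccr2 and of 1 TPM for Cx3cr1. The rest of the monocyte list was mixed. F13a1 and Chil3 were at the floor in all 12 libraries, and Fn1 lay inside the range of the others. Plac8 and S100a4 lay above it, at 35.4 and 9.17 TPM against at most 13.9 and 5.70 TPM elsewhere. Of the 6 monocyte genes tested, 5 were above all others in TPM, beside 70.8% of all tested genes. After median-of-ratios scaling 2 of the 6 were above all others, beside 24.0% of all tested genes, and 1 was below.

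**Figure D4:**
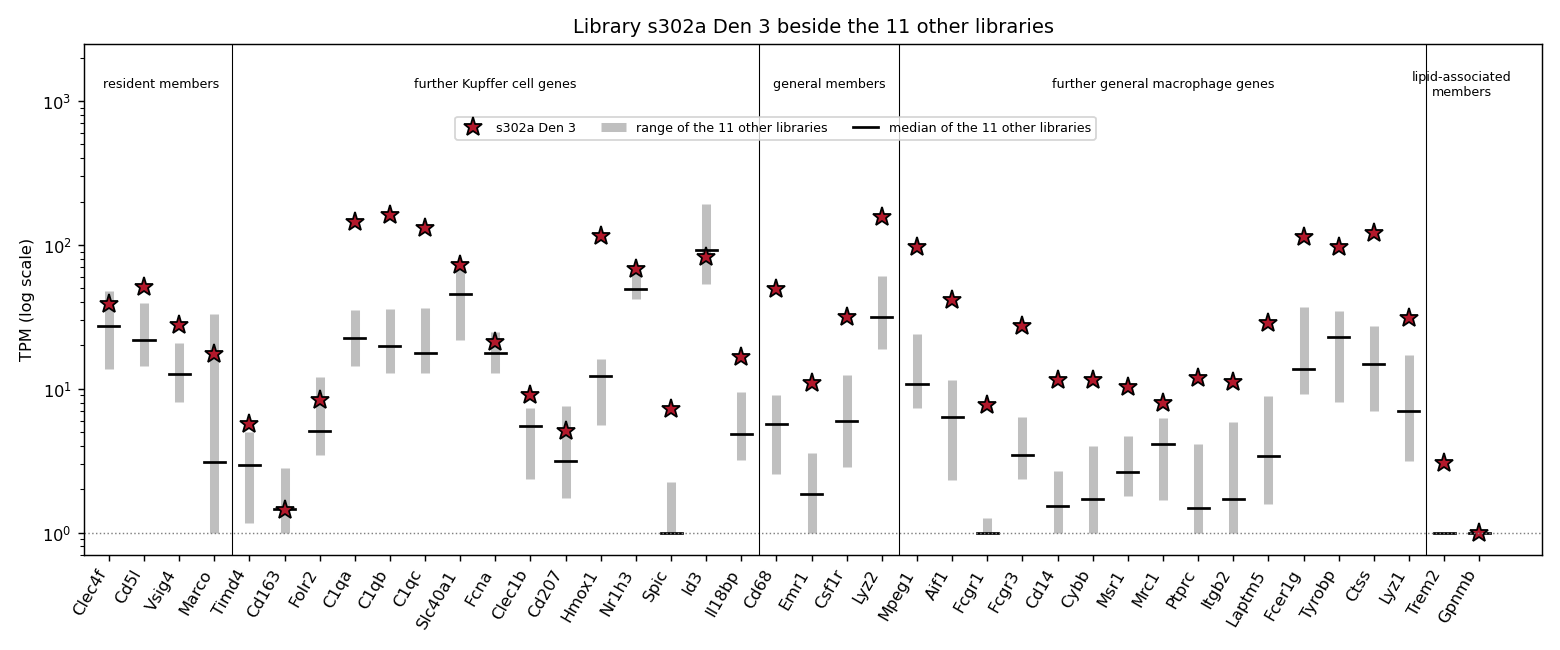
TPM on a log axis of the 10 markers and of the further Kupffer cell and general macrophage genes, with s302a Den 3 as a star, the range of the 11 other libraries as a grey bar and their median as a black line; the dotted line is the floor of 1 TPM. The general genes lie above the grey bars, as Cd68 does at 49.6 TPM against at most 9.01 TPM. So do Cd5l, Vsig4 and 10 of the 15 further Kupffer cell genes, while Clec4f, Marco, Folr2, Fcna and Cd163 are among those inside the bars.

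Markers of other cells moved with s302a Den 3 as well. The 10 stellate cell genes, led by Dcn and Reln, summed to 248 TPM there and to 36.5 to 88.8 TPM in the others, with 10 of 10 above all other libraries in TPM, beside 70.8% of all tested genes, and 7 of 10 after median-of-ratios scaling, beside 24.0%. The 8 cholangiocyte genes summed to 156 TPM, against 24.6 to 75.6 TPM, and the 10 monocyte genes, led by Fn1 and Plac8, to 256.6 TPM, against 132.6 to 251.6 TPM. The 11 chemokine genes, led by Ccl9 and Ccl6, summed to 164.7 TPM, against 37.2 to 68.9 TPM. The 10 sinusoidal endothelial genes, with Clec4g and Fcgr2b highest, summed to 115 TPM, inside the 50.5 to 127 TPM of the others. The 9 hepatocyte genes, with Alb and Apoa1 highest, summed to 60501 TPM, inside 49720 to 100969 TPM, but 4 of the 9 were below all other libraries in TPM and 9 of 9 after median-of-ratios scaling, with a median log2 difference of -1.08. After quantile normalization, 4 of the 9 hepatocyte genes were below all other libraries and 1 was above. Their median was then 0.02, beside -0.02 for all tested genes, so the size of this drop depends on the scaling. The part of these other cell types in the marker values was not tested.

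Lymphoid signal was low in s302a Den 3 and near the floor in the other libraries, and granulocyte signal was low and uneven. The 10 T and NK cell genes, with Nkg7 and Cd3g highest, summed to 17.5 TPM in s302a Den 3 and to 10 to 11.7 TPM elsewhere, where a sum of 10 is the floor. The B cell genes, with Blnk and Cd79b highest, summed to 14.5 TPM and 7.0 to 8.65 TPM, and the dendritic cell genes, with Clec9a and Zbtb46 highest, to 8.98 TPM and 8.0 to 8.49 TPM. The neutrophil genes, with S100a8 and S100a9 highest, summed to 27.7 TPM and 10 to 26.9 TPM, where the floor is 9 TPM, and S100a8 reached 11.4 TPM in s302a Den 3 and 10.955 TPM in WT Ctrl 3. The granule genes Mpo, Elane, Camp and Ltf of that list were at the floor in all 12 libraries. Csf3r had 2.85 TPM in s302a Den 3 and at most 1.08 TPM elsewhere. Of the 3 neutrophil genes tested, 2 were above all others there in TPM, beside 70.8% of all tested genes.

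With all 12 libraries, 1 gene of the other lists was called. Of the 14 other lipid-associated macrophage genes tested, Spp1 was called higher in s302a Den than in s302a Ctrl, and none was called lower. Spp1 encodes osteopontin, a secreted protein made by these macrophages and also by bile duct cells, whose list holds it too. It had 59.0, 55.3 and 122 TPM in s302a Den libraries, 17.1, 13.7 and 14.9 TPM in s302a Ctrl libraries, 19.4, 16.9 and 25.9 TPM in WT Den libraries and 16.8, 32.1 and 17.5 TPM in WT Ctrl libraries. All 3 s302a Den libraries lay above every other library, and s302a Den 3 was highest, as it was in its group for 87.0% of all tested genes. The s302a Den libraries lay wholly above those of WT Den for 3.23% of all tested genes. The share with s302a Den above every other library was not counted.

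The log2 difference of Spp1 was 2.20 between s302a Den and s302a Ctrl (SE 0.32, limma adjusted p = 0.0125) and 1.80 between s302a Den and WT Den (SE 0.32, limma adjusted p = 0.0390). Without s302a Den 3 they were 1.84 (adjusted p = 0.00793) and 1.44 (adjusted p = 0.0144). The first lost its call without s302a Ctrl 3 (adjusted p = 0.0564), without a filter (0.166) and with the libraries of that comparison alone (0.0554), and over its 22 alternative settings the adjusted p ran from 0.00110 to 0.166. The second lost it without any 1 of 9 libraries, namely s302a Den 2, s302a Ctrl 1, 2 or 3, WT Den 1, 2 or 3, and WT Ctrl 1 or 3 (adjusted p from 0.0516 to 0.181), without a filter (0.180) and with its own libraries alone (0.195). The mean DEN effect over both genotypes was 1.08 (limma adjusted p = 0.0445), and that call was lost without s302a Den 1, s302a Ctrl 1, 2 or 3, WT Den 1, 2 or 3, or WT Ctrl 1 or 3 (adjusted p from 0.0647 to 0.128), and without a filter (0.247). The DEN effects of the genotypes differed by 2.25 for Spp1, which was not called (limma adjusted p = 0.182). Spp1 thus stood high in libraries whose Trem2 and Gpnmb were at the floor, s302a Den 1 and s302a Den 2.

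Apart from Spp1, no gene of the lists was called in any of the 6 comparisons by limma with all libraries, although single genes passed unadjusted. Without s302a Den 3, its group held 2 libraries, and far more of all tested genes were called (2.43% in s302a Den against s302a Ctrl). Fabp5 and Lpl then joined Spp1 among the lipid-associated genes called higher in s302a Den than in s302a Ctrl. In s302a Den against WT Den the same 3 genes were then called higher, and Ctsb, Ctsd and Lipa, lysosomal enzymes, lower (5.89% of all tested genes called). Slc40a1, the iron exporter of the Kupffer cell list, was then called lower in s302a Den than in s302a Ctrl. The bile duct gene Sox9 and the hepatocyte genes Fgb and Apoa1 were also called higher in at least 1 comparison without that library. The chemokine gene Ccl9 was called lower. Apoa1 and Ccl9 were called in the mean DEN effect alone, where 5.55% of all tested genes were called. In the difference of DEN effects, Spp1 and Fabp5 were then called higher, beside 0.631% of all tested genes. The other lipid-associated macrophage genes had a median log2 difference of 0.76 between s302a Den and s302a Ctrl, beside 0.27 for all tested genes, with 13 of 14 positive. Without s302a Den 3 that median was 0.03, beside 0 for all tested genes, with 8 of 14 positive. Apoe, which hepatocytes also make, and Ctsd, a lysosomal protease, were the most abundant of them. Fabp5, a fatty acid carrier of the same list chosen after its values were seen, had 380, 193 and 25.8 TPM in s302a Den libraries and 22.6 to 27.0 TPM in s302a Ctrl libraries. Its high libraries were thus not the library in which Cd68 was high, but most of the list was high there. Of its 14 tested genes, 11 were above all other libraries in s302a Den 3 in TPM, beside 70.8% of all tested genes. After median-of-ratios scaling 10 of 14 were, beside 24.0%, and 2 were below all others. Among the macrophage growth factor and identity genes, which include Cebpb, 0 of 11 were called between s302a Den and s302a Ctrl. The 14 other general macrophage genes, the 15 other Kupffer cell genes, the 6 monocyte genes and the 7 chemokine genes tested also gave 0 calls in that comparison with all libraries.

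Within groups, the order of libraries was compared with that of all genes. In s302a Ctrl, library 3 was the highest of its group for 8 of 8 tested markers, as for 21.1% of all tested genes, and in WT Ctrl library 3 was the highest for 8 of 8, as for 14.0%. In s302a Den, library 2 was the lowest of its group for 8 of 8, as for 70.6% of genes. In WT Den, library 2 was the lowest for 7 of 8, with Marco tied, as for 50.4% of genes. The highest library was s302a Den 3 for 7 of 8, as for 87.0% of genes, and WT Den 1 for 5 of 8, as for 62.5%, shares at the background. In both untreated groups 1 library was the highest for every tested marker without being the highest for most genes.

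The genes whose pattern over the 12 libraries was nearest to the mean of the resident markers were Cfp, Sdc3 and Fhit, among 7350 genes with a mean of at least 5 TPM. Their root mean square differences from the centred log2 profile were 0.26, 0.35 and 0.36, where the profile itself had a root mean square of 0.61. Cfp, which encodes properdin of the complement system, ranged from 5.44 to 25.6 TPM. The profile of the lipid-associated pair was flat apart from Trem2 in s302a Den 3, with a root mean square of 0.14. Its nearest genes, Tusc2, H1f0 and Lrpprc, at 0.09, 0.09 and 0.10, are therefore flat genes and say little of Trem2.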

How the data were processed

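Total RNA of mouse liver was sequenced in 12 libraries, and the authors deposited a table of TPM per gene symbol for each library, made with kallisto on mm10 per the submitters' processing notes (version not given in the sources used here). Each deposited TPM is 1 or more, and the step that set this floor is not given in the sources used here. TPM keeps no depth, so the depth of the libraries is unknown. Genes above 1 TPM in at least 3 of the 12 libraries were kept (12120 of 31253). Differences were tested with limma 3.58.1 (R 4.3.3) on log2(TPM + 1), a scale that understates changes of low genes, with a mean-variance trend, 8 residual degrees of freedom and adjustment over all genes kept. The script was tested on simulated data. The 10 markers and the other gene lists were chosen with earlier results of these data known. From each other list the genes called, or else the 2 most abundant, were named, except for an item that is not reported here. The replicate numbers were not used to pair the libraries in the main fits. Alternatives were other pseudocounts, filters and scalings, robust moderation, array weights, the replicate block and each library left out in turn. Scalings of s302a Den 3 against the others, and the other lists without that library, were added after seeing the data. Promoter windows came from RefSeq tables and were used for 8 of the 10 markers. None was found for Emr1, and marker windows on chromosome 18, which holds Csf1r, were left out. Gene positions came from GENCODE. Figures were drawn with matplotlib 3.10.9.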

Additional observations from a re-analysis of the deposited data

How the results depend on the processing

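No tested marker was called under any alternative in s302a Den against s302a Ctrl, WT Den against WT Ctrl, s302a Ctrl against WT Ctrl or the mean DEN effect. In s302a Den against WT Den 1 of 8 was called with array quality weights, Marco (log2 difference 3.65), and leaving out each library in turn gave 0 to 1 calls. In the difference of DEN effects array quality weights also gave 1 call, Marco (3.19, limma adjusted p = 0.0432). Those weights give s302a Den 3 a weight of 0.0498 and s302a Den 1 a weight of 3.45. Signs turned for small differences. The mean DEN effect of Marco, -0.32 in the report's fit, was 0.017 with array quality weights and ran from -0.65 to 0.11 without single libraries. Clec4f in s302a Den against s302a Ctrl was -0.29 with median-of-ratios scaling, -0.28 with quantile normalization and -0.24 to 0.48 without single libraries. Without single libraries Cd68 ran from -0.35 to 1.57 in that comparison and from -0.024 to 0.94 in the mean DEN effect, and Emr1 from -0.35 to 0.20 in s302a Ctrl against WT Ctrl. Clec4f in s302a Den 3 against the median of the others was -0.24 and -0.27 under median-of-ratios scaling and quantile normalization. The cause was not tested. Of the 48 differences of tested markers, 32 changed sign in at least 1 of their alternatives, and 3 of the 1034 alternative fits gave a call.

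The main fits did not treat same-numbered libraries as pairs. Their deviations from the group means had correlations from -0.108 to 0.282, the highest for replicate 3 of the 2 untreated groups. Whether same-numbered libraries share an effect was not tested. With the replicate number as a block, 0 of the 8 markers were called in each of the 6 comparisons, and Marco in s302a Den against WT Den had an adjusted p of 0.0599. Spp1 kept its call in s302a Den against s302a Ctrl under the block (adjusted p = 0.0208) and lost it in s302a Den against WT Den (0.0596) and in the mean DEN effect (0.0689).

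The floor of 1 TPM limits Trem2, Gpnmb, Emr1 and Marco in WT Den, none of which can be followed below it. With 3 libraries a group and 8 residual degrees of freedom, the intervals of s302a Den against s302a Ctrl leave room for differences of more than 1 on the log2 scale in every tested marker except Clec4f.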

Other observations

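The ratios of 4 markers to Clec4f in WT Den libraries lay below those of all 9 other libraries, a pattern chosen after its values were seen. The ratio of Lyz2 to Clec4f was 1.46, 1.77 and 4.01 in s302a Den libraries and 0.660, 0.689 and 0.731 in WT Den libraries, and its lowest value elsewhere was 1.16. The ratio of Cd5l to Clec4f was 1.02, 1.18 and 1.31 in s302a Den libraries and 0.832, 0.531 and 0.627 in WT Den libraries, and its lowest value elsewhere was 0.883. The ratio of Vsig4 to Clec4f was 0.486, 0.595 and 0.708 in s302a Den libraries and 0.435, 0.326 and 0.415 in WT Den libraries, with a lowest value elsewhere of 0.449, and Marco was at the floor in WT Den. The ratios of Cd68 and Csf1r to Clec4f in WT Den, 0.163 to 0.227 and 0.189 to 0.243, overlapped those of other libraries. All of these ratios share Clec4f as their denominator, whose mean was highest in WT Den. The share of all tested genes with such a pattern was not counted. With 3 libraries against 3, an exact permutation test cannot give a two-sided p below 0.1, so no test is given. Lyz1, which shares sequence with Lyz2, stood in a ratio (Lyz2 to Lyz1) of 5.01 in s302a Den 3 and of 3.33 to 6.43 in the 11 other libraries.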
